A study of Sus scrofa with 20 samples.

Results

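The data described here cover the steroid dehydrogenases and reductases of boar testis and liver: the 17-beta-hydroxysteroid dehydrogenases HSD17B2 and HSD17B4, the 11-beta-hydroxysteroid dehydrogenases HSD11B1 and HSD11B2, the aldo-keto reductases AKR1C1, AKR1C4 and AKR1CL1, and the steroid 5-alpha-reductases SRD5A1 and SRD5A2. Members were every reference transcript whose RefSeq identifier maps to one of these 9 pig symbols, and HSD17B2 was also taken by its published identifier. Of the symbols, 8 were found. AKR1C4 had no identifier here, and AKR1C1 had 2 identifiers that belong to 2 gene records, so that 9 of 21755 reference identifiers were members. They are HSD17B2 (NM_001167649.1), HSD17B4 (NM_214306.1), HSD11B1 (NM_214248.1), HSD11B2 (NM_213913.1), AKR1C1 (NM_001044569.1 and NM_001044618.1), AKR1CL1 (NM_001038626.2), SRD5A1 (XM_003134156.1) and SRD5A2 (NM_213988.1).

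RNA-seq reads were counted in 10 testis and 10 liver samples, which per the study came from the same 10 crossbred boars. The boars were on average 116 days old, from a cross of Duroc with F2 pigs that carry Leicoma, German Landrace and Large White. Each tissue held 5 samples from boars with low and 5 from boars with high androstenone in fat, so that the groups are extremes of one measured trait and no animal was treated. Each sample was 1 library, of 6161397 to 15975386 counts in testis and 5796973 to 26783002 counts in liver. Samples are named here by group and number (low 1 to 5, high 1 to 5).

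Androstenone is a steroid pheromone that Leydig cells of the boar testis make from pregnenolone, and which reaches the fat through the blood and gives pork of some boars an unpleasant odour. Hydroxysteroid dehydrogenases and aldo-keto reductases interconvert the keto and hydroxyl forms of such steroids, 5-alpha-reductases saturate a double bond of the first ring, and the liver uses enzymes of these families to turn lipid-soluble steroids into forms that can be conjugated and excreted. The same families set the local strength of androgens, estrogens and glucocorticoids, and some members activate a hormone that others inactivate.

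Levels are given as counts per 1000000 (CPM) normalized with TMM factors over all 20 samples, and a reference transcript was called different where edgeR's quasi-likelihood test gave a Benjamini-Hochberg adjusted p under 0.05 over all transcripts and a fold change of at least 1.5. A count of 3, used as the floor of detection for counting error only, corresponds to 0.130 to 0.357 CPM in the testis and 0.218 to 0.673 CPM in the liver libraries. Levels are not compared between genes, since the transcript lengths were not used here. As a check of the tissue labels, INSL3, a Leydig cell hormone, was at 1579 ± 828 CPM in testis and 0.557 ± 1.29 CPM in liver (SD, n = 10), and ALB, the plasma protein of hepatocytes, was at 7.36 ± 9.04 and 125256 ± 48972 CPM. All 6 hepatocyte markers found were called higher in liver and all 4 germ cell markers higher in testis, as were 3 of 4 Leydig cell markers, HSD3B1 being the exception. Of 4 Sertoli cell markers SOX9 was called higher in testis and CTSL higher in liver, and AMH and CLU were not called.

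Which of these enzymes belong to the testis and which to the liver is the first question. Between the tissues, 8 of the 9 member identifiers were called, with 3 higher in testis (HSD11B2, SRD5A1 and SRD5A2) and 5 higher in liver (HSD17B2, HSD17B4, HSD11B1 and both AKR1C1 identifiers). AKR1CL1 was the member not called. Of all 19065 tested transcripts, 75.7% were called, 43.5% higher in testis and 32.2% higher in liver, so that the number of members called was close to the background. HSD11B2, SRD5A1 and SRD5A2 reached the minimum of 10 counts through the testis alone, so their calls carry no weight as a count. The adjusted p-values given for them below share this limit and serve as description. In the 5 members higher in liver all 10 livers lay above all 10 testes. Over all transcripts the tissues did not overlap in 42.8%, with 27.5% higher in testis and 15.3% higher in liver. For each of these 5 members the permutation test with 100000 resamples gave p = 2e-05, two-sided, the smallest it can give. Per the study both tissues came from the same 10 boars, which the labels do not tie together. The permutation test and the main edgeR fit take the 20 samples as separate animals, so their p-values between tissues overstate the replication.

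**Figure D1:**
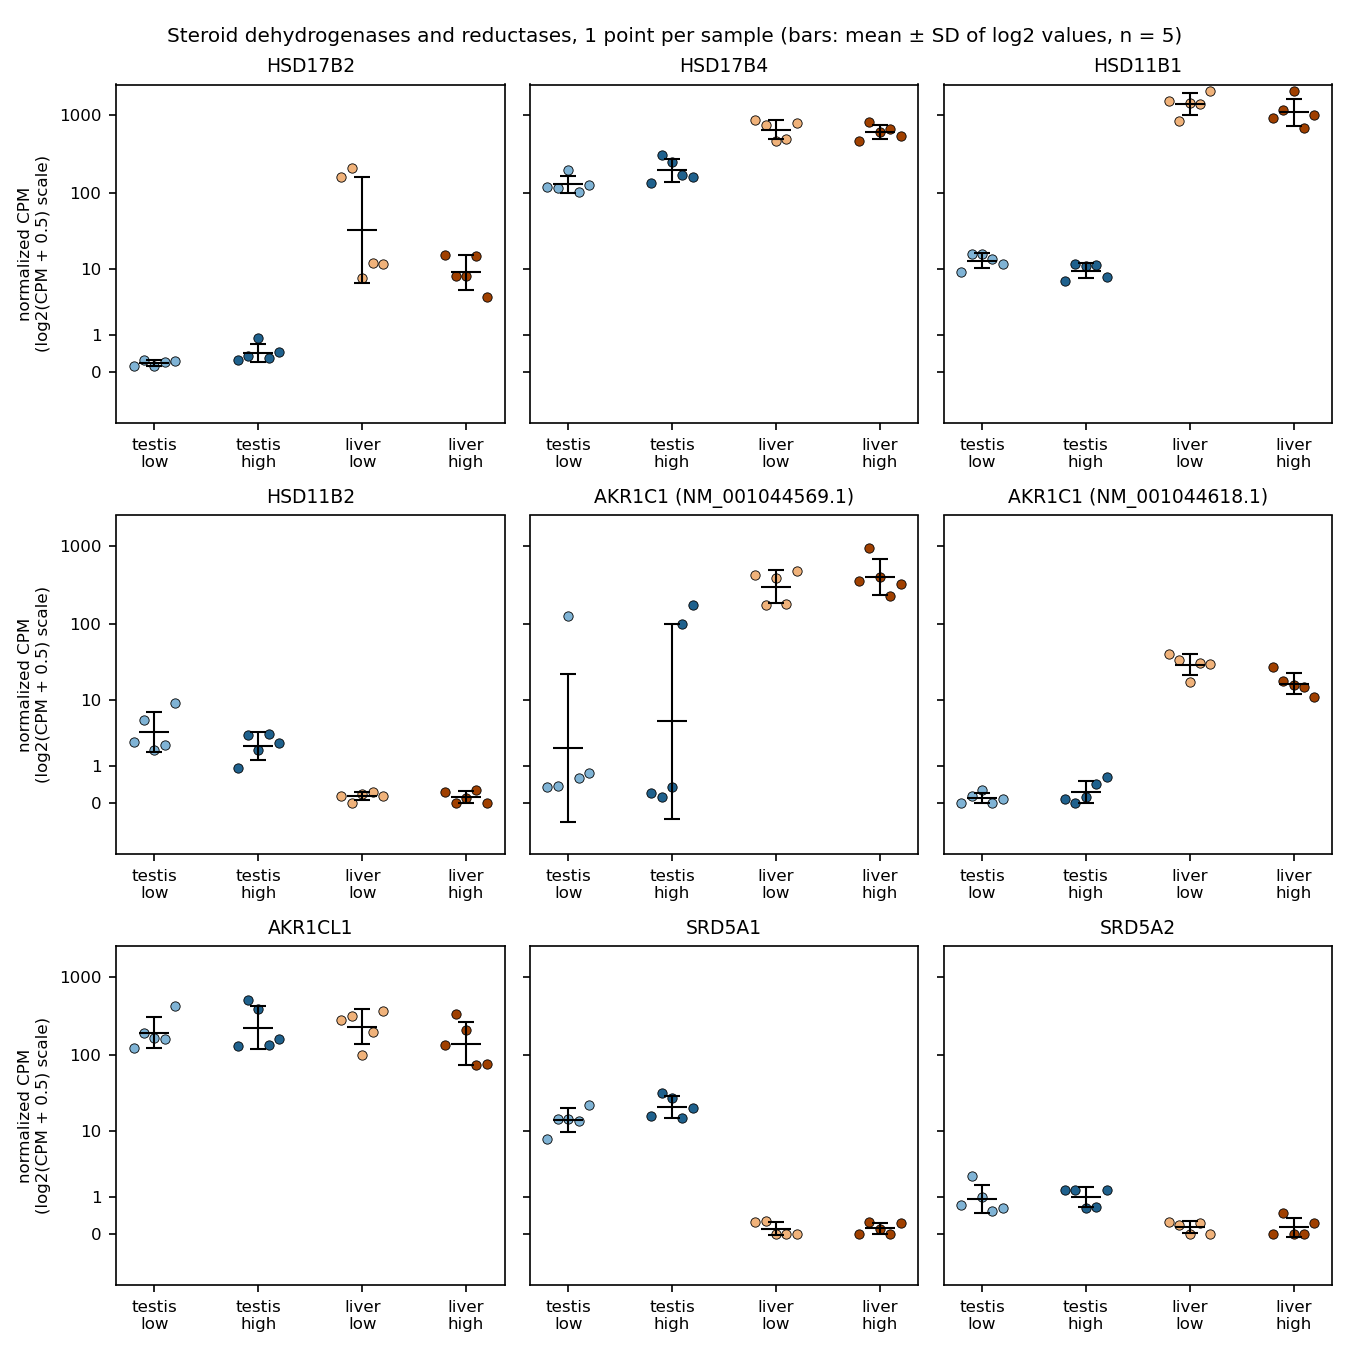
Normalized CPM of the 9 members on a log2(CPM + 0.5) scale (vertical axis, labelled in CPM) in the 4 groups (horizontal axis), 1 point per sample with replicates 1 to 5 from left to right, bars giving the mean ± SD of the log2 values (n = 5). HSD11B1 and AKR1C1 (NM_001044618.1) stand higher in every liver than in any testis, SRD5A1 stands higher in every testis, AKR1CL1 overlaps between tissues, and AKR1C1 (NM_001044569.1) splits the testes into 3 high and 7 low samples.

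The 2 enzymes of the glucocorticoid switch differed between tissues in opposite directions, and both were detected in testis. HSD11B1, which regenerates cortisol from cortisone and is abundant in liver, was at 1549.7, 851, 1433, 1391 and 2077 CPM in low 1 to 5 and at 936, 1188, 2060.2, 679 and 1007 CPM in high 1 to 5 of the liver. In testis it was at 9.05, 16.0, 15.7, 13.7 and 11.6 CPM in the low and at 6.81, 11.6, 10.8, 11.4 and 7.87 CPM in the high samples. Every liver lay far above every testis, with a log2 fold change (testis over liver) of -6.85 (SE 0.28, adjusted p = 2.70e-17), 115-fold higher in liver.

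HSD11B2, which inactivates cortisol to cortisone in mineralocorticoid target tissues, showed the opposite order. It was at 2.53, 5.34, 1.90, 2.24 and 9.17 CPM in the low testes and at 0.905, 3.24, 1.92, 3.33 and 2.40 CPM in the high testes, from 470 counts over the 10 libraries. The livers held 0 to 2 counts each, 8 in all, and none exceeded the floor. The fitted log2 fold change was 4.85 (SE 0.48, adjusted p = 1.17e-09). Pooled over libraries the rate in testis was 32.9 times that in liver, with an exact 95% interval of 16.5 to 76.6 that covers counting error only.

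Both 5-alpha-reductases were higher in testis. SRD5A1, one of the enzymes that reduce the A-ring double bond of steroids, a step on the way to androstenone, was at 7.88, 14.6, 14.5, 13.6 and 22.2 CPM in the low and at 15.8, 31.6, 27.3, 14.9 and 20.3 CPM in the high testes. Its 10 livers held 0 to 3 counts each and 8 in all, with 5 libraries at 0, against 2795 counts in testis. In edgeR the log2 fold change was 7.42 (SE 0.38, adjusted p = 3.11e-15), and the pooled ratio of testis to liver was 195 (exact 95% interval 99.1 to 453, counting error only).

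SRD5A2, the isoform known for making dihydrotestosterone in the male genital tract, was low in both tissues. It was at 0.681, 2.24, 0.971, 0.492 and 0.569 CPM in the low and at 1.33, 1.30, 0.575, 0.595 and 1.34 CPM in the high testes, with 148 counts in all. The livers held 0 to 2 counts each, 8 in all. In edgeR the log2 fold change was 3.24 (SE 0.53, adjusted p = 5.41e-06) and the pooled ratio 10.4 (exact 95% interval 5.12 to 24.4, counting error only). The tissues did not overlap, with the testes only just above the floor.

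HSD17B4, the peroxisomal bifunctional protein that works in fatty acid beta-oxidation and also oxidises estradiol, was well expressed in both tissues. In liver it was at 861, 749.6, 473, 496 and 794 CPM in the low and at 466, 824, 616, 661 and 537 CPM in the high samples. In testis the values were 118, 116, 198, 104 and 127 CPM in the low and 134, 305, 249, 170.2 and 161 CPM in the high samples. The lowest liver stood above the highest testis, and the log2 fold change was -1.98 (SE 0.20, adjusted p = 2.60e-09). With total counts in place of TMM factors it was -0.98 and still called, and that scaling moved the median of all transcripts from 0.31 to 1.28.

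HSD17B2, which oxidises testosterone and estradiol to their weaker 17-keto forms, was close to the floor in testis, with 1 to 9 counts per library and 6 of 10 libraries at 3 counts or fewer. Its livers ranged from 4.03 to 209.7 CPM. Between tissues the log2 fold change was -6.84 (SE 0.64, adjusted p = 3.79e-10).

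**Figure D2:**
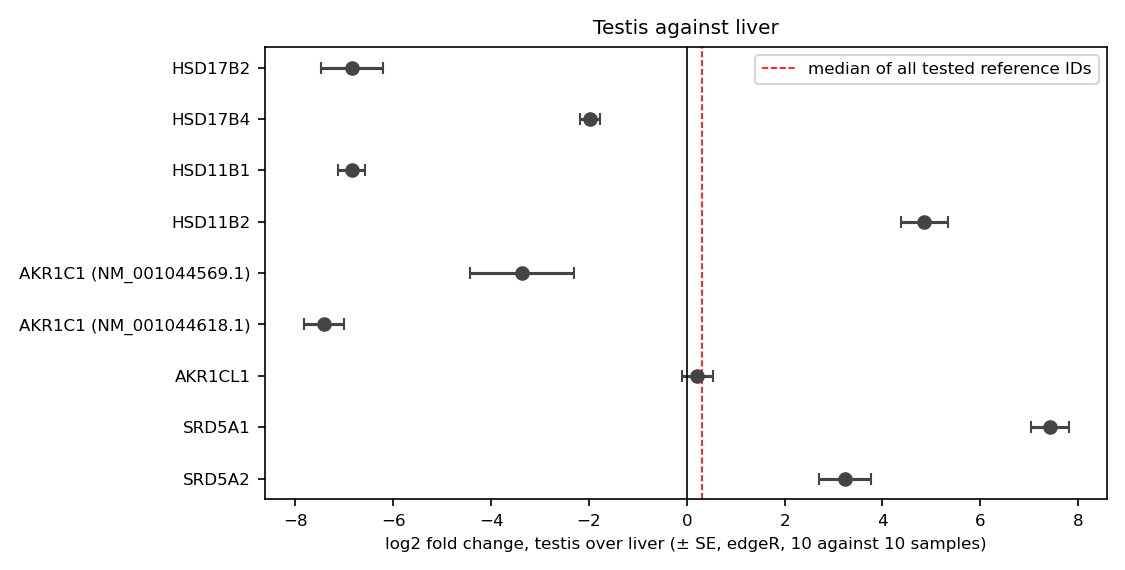
Log2 fold change of testis over liver (horizontal axis) for each member (vertical axis), points with SE bars from edgeR over 10 testis and 10 liver samples, and a dashed line at the median of all tested transcripts, 0.31. SRD5A1 (7.42), HSD11B2 (4.85) and SRD5A2 (3.24) lie to the right, AKR1CL1 (0.22) lies at the median, and the other members lie to the left.

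The aldo-keto reductases of the AKR1C group reduce 3-keto and 20-keto steroids, and neighbouring genes of the group are similar in sequence. On pig chromosome 10 of the Sscrofa11.1 annotation, used here only for the order of genes, they lie in the order UCN3, AKR1CL1, AKR1C1 (NM_001044569.1), LOC102167589, LOC733635, AKR1C1 (NM_001044618.1), AKR1E2. How reads that fit several of these transcripts were counted is not given in the sources used here, so that the division of counts among them is uncertain.

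AKR1CL1, an aldo-keto reductase 1C-like gene, was high in count in both tissues and was not called between them. It was at 124, 192, 165, 162 and 422 CPM in the low and at 131, 514, 386, 133 and 162 CPM in the high testes. In liver it was at 284, 315, 98.5, 200.1 and 364 CPM in the low and at 133, 334, 209.6, 74.5 and 76.1 CPM in the high samples. The tissues overlapped, with a log2 fold change of 0.22 (SE 0.33, adjusted p = 0.546, permutation p = 0.568). The call depended on scaling: with total counts alone the value was 1.24 and was called higher in testis.

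AKR1C1 (NM_001044618.1) was a liver transcript, with 0 to 6 counts in the testis libraries, or at most 0.58 CPM. In liver it was at 40.8, 33.6, 17.3, 30.5 and 30.1 CPM in the low and at 27.2, 17.7, 15.7, 14.8 and 11.0 CPM in the high samples. Between tissues the log2 fold change was -7.42 (SE 0.41, adjusted p = 1.45e-14).

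AKR1C1 (NM_001044569.1) was abundant in all livers but in only 3 of the 10 testes. In testis it was at 0.292, 0.321, 128, 0.547 and 0.696 CPM in the low and at 0.160, 0.0864, 0.287, 100.1 and 173 CPM in the high samples. Low 3, high 4 and high 5 thus held 100.1 to 173 CPM, from 2891, 842 and 1803 counts, whereas the other 7 testes held at most 0.70 CPM, from 2 to 11 counts. The livers were at 429.7, 173, 395, 179 and 481 CPM in the low and at 361, 956, 404, 231 and 329 CPM in the high samples. The lowest liver, low 2, and the highest testis, high 5, were both at 173 CPM when rounded, so that the tissues were separated only narrowly. The log2 fold change between tissues was -3.36 (SE 1.06, adjusted p = 0.00584), and it was -6.22 without testis low 3 and between -3.93 and -3.13 without any other single sample.

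The transcripts most like AKR1C1 (NM_001044569.1) over the 10 testes were its neighbours or identifiers without a symbol. Of 13648 transcripts searched by Pearson's r on log2 values, the leading ones were DQ474065.1 (0.995), XM_003130834.1 (0.995), LOC733635 (0.994) and DQ474066.1 (0.991), and the next was MTERF3, a mitochondrial transcription termination factor family gene, at 0.859. These are descriptions over samples that share a split, and reads may be shared among the first 4 and AKR1C1. In testis low 3 DQ474065.1 held 2767 counts against 2891 of AKR1C1 (NM_001044569.1), and DQ474066.1 held 1561 against 1587 of LOC733635. Whether such a pair stands for a single gene listed under different identifiers was not tested, so these transcripts may not be separate genes. LOC733635 was at 70.1, 69.3 and 58.9 CPM in testes low 3, high 4 and high 5 and at no more than 0.29 CPM in the other 7. XM_003130834.1 was at 116.7, 116.9 and 109.7 CPM in those 3 and at no more than 0.38 CPM elsewhere. These genes were chosen for their likeness, so that no test was made.

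Of these 5 transcripts, XM_003130834.1 alone had its 3 highest livers under the same numbers. It was at 80.4, 52.7 and 69.1 CPM in livers low 3, high 4 and high 5, against 15.1 to 46.9 CPM in the other 7. LOC733635 was at 32.0, 18.2 and 22.4 CPM in these 3 livers and reached 31.2 CPM in another, high 2, and DQ474066.1 was at 24.0 to 44.2 CPM in them and at 6.50 to 35.0 CPM in the other 7. AKR1C1 (NM_001044569.1), at 231 to 395 CPM, and DQ474065.1, at 231 to 409.6 CPM, lay within the range of the other livers, which was 173 to 956 and 170.4 to 982 CPM. The count of AKR1C1 (NM_001044569.1) was 12.3, 12.7 and 14.7 times that of LOC733635 in these 3 livers and 25.5 to 43.8 times in the other 7, so that the 3 ratios were the lowest. In the 3 testes the ratio was 1.82, 1.44 and 2.94. The labels do not say whether a number marks the same boar in both tissues, and this comparison was made after the values were seen. The summed Leydig cell markers of the 3 testes were 1456, 1647 and 1955 CPM, where all testes ranged from 694 to 3406 CPM. Their summed hepatocyte markers were 47.9, 36.8 and 63.1 CPM, where all testes ranged from 36.8 to 123 CPM. The part of cell content in this split was not tested.

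**Figure D3:**
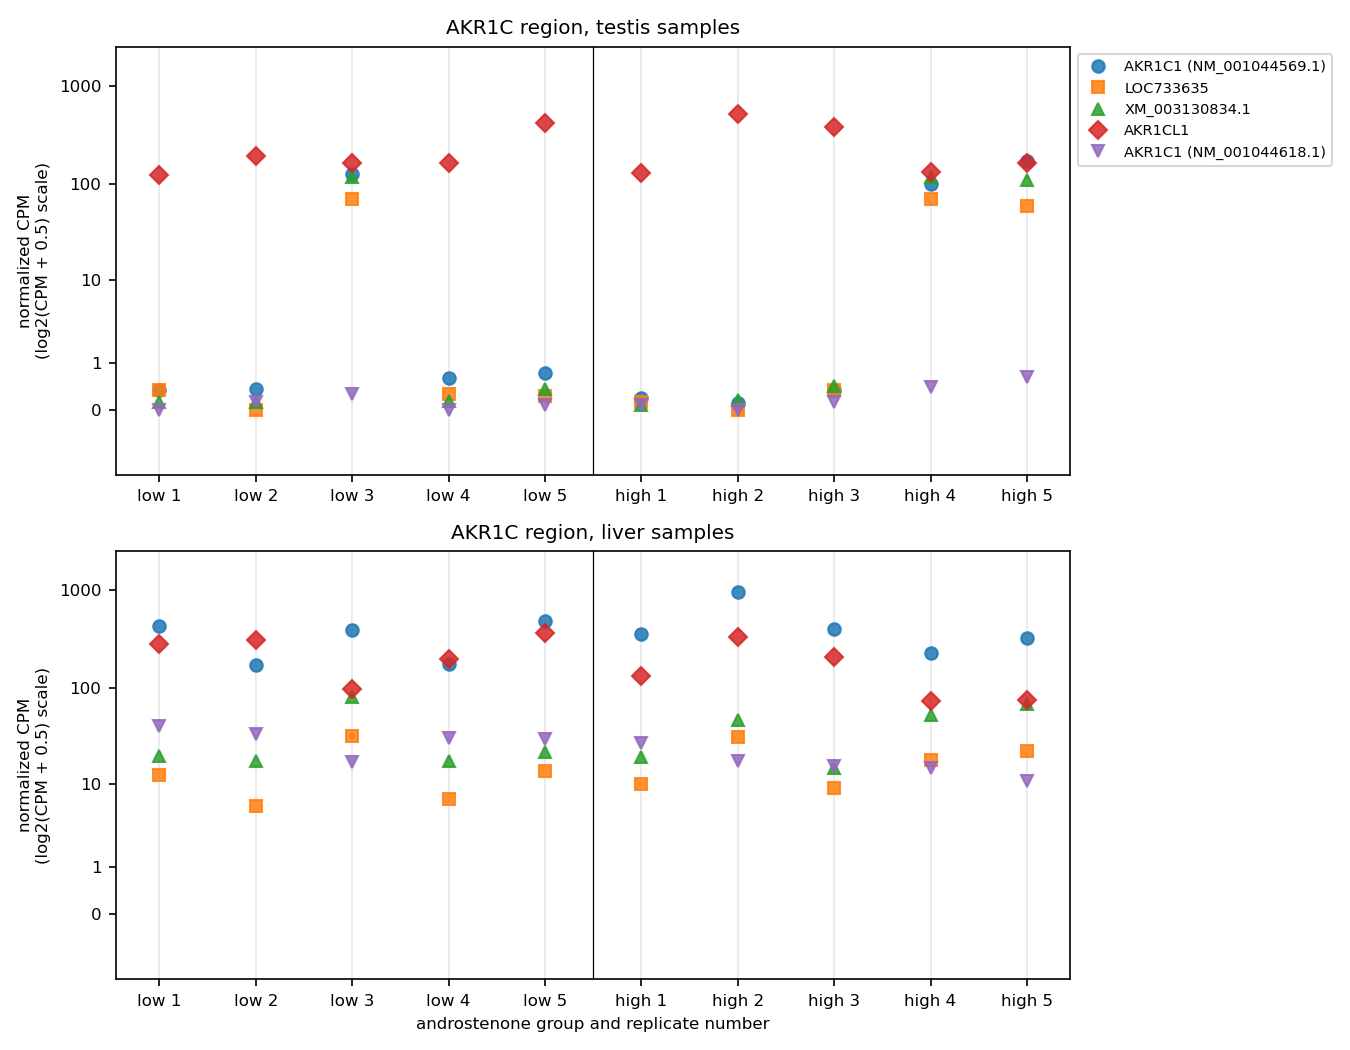
Normalized CPM on a log2(CPM + 0.5) scale (vertical axis, labelled in CPM) of 5 transcripts of the AKR1C group and its neighbours in each testis sample (upper panel) and liver sample (lower panel), by androstenone group and number (horizontal axis). AKR1C1 (NM_001044569.1), LOC733635 and XM_003130834.1 are high in testes low 3, high 4 and high 5 and near 0 in the other 7, whereas AKR1CL1 is high in all 10.

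Whether these enzymes differ between boars of high and low androstenone is the second question. In neither tissue was a member called by edgeR, nor was any of 18340 transcripts tested in testis or 15855 in liver, a background of 0% in both. Without adjustment, 4 of 9 members in testis had a p under 0.05 (background 9.49%) and 2 of 6 in liver (background 2.93%). The members were chosen with earlier results of these data known, and the study lists HSD17B2 as different in these livers. These shares are therefore no evidence of an excess. DESeq2 called 120 transcripts in testis and 7 in liver, none of them a member. In testis 7 of 9 members had positive values (high over low) with a median log2 fold change of 0.57 against -0.02 over all transcripts, and in liver 5 of 6 were negative with a median of -0.40 against 0.01. The testis values of AKR1C1 (NM_001044569.1), AKR1CL1 and SRD5A2 turned negative with a single sample left out. That of HSD17B4 in liver turned positive. A common shift of the members was not tested. HSD11B2, SRD5A1 and SRD5A2 were not tested in liver, where each had under 10 counts. No member had non-overlapping groups, against 1.86% of all transcripts in testis (0.758% higher and 1.1% lower in high samples) and 0.555% in liver (0.0883% and 0.467%).

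**Figure D4:**
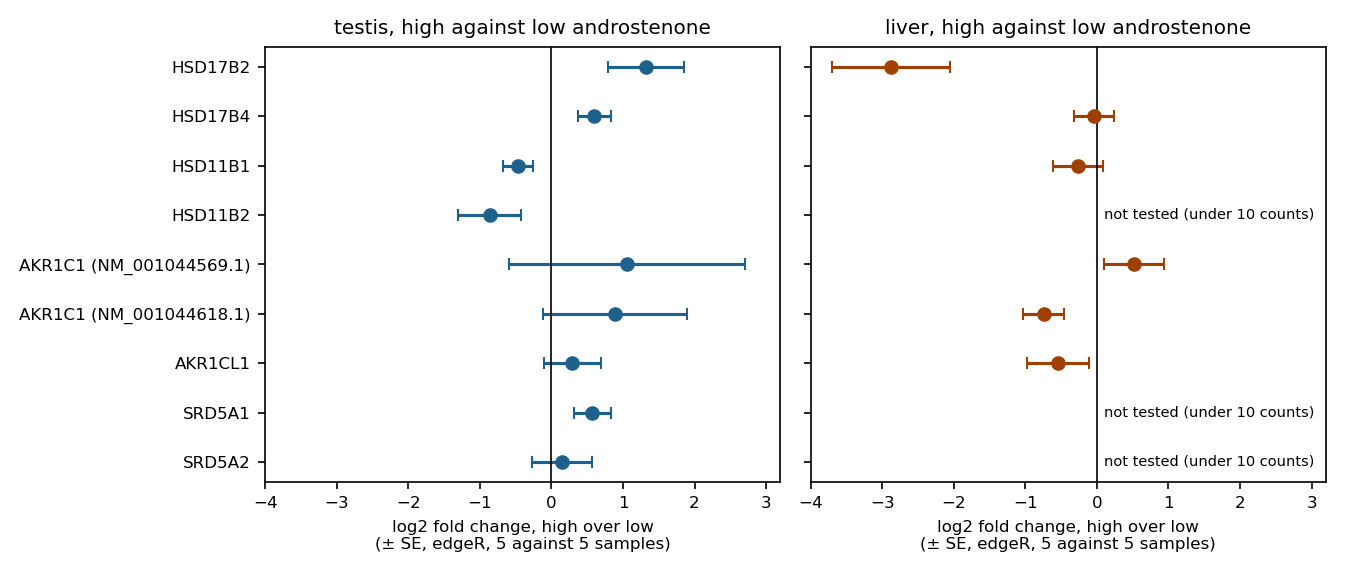
Log2 fold change of high over low androstenone (horizontal axis) for each member (vertical axis) in testis (left) and liver (right), points with SE bars from edgeR over 5 against 5 samples. HSD17B2 in liver (-2.88) lies farthest from 0, AKR1C1 (NM_001044569.1) in testis has the widest error (SE 1.65), and 3 members were not tested in liver.

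In liver the widest difference belonged to HSD17B2. It was at 160.3, 209.7, 7.48, 12.1 and 11.7 CPM in low 1 to 5 and at 15.3, 7.91, 7.90, 14.8 and 4.03 CPM in high 1 to 5. Low 1 and low 2 stood at 160.3 and 209.7 CPM, whereas the other 3 low samples lay within the range of the high samples. The group means were 80.2 ± 97.2 CPM (SD, n = 5) and 9.99 ± 4.88 CPM (SD, n = 5). The log2 fold change was -2.88 (SE 0.83) with an unadjusted p of 0.00343 and an adjusted p of 0.9999, and the exact two-sided permutation test gave p = 0.175 where 0.00794 is the smallest p of 5 against 5 samples. Leaving out low 2 gave -2.13 and leaving out low 1 gave -2.47. The study also measured HSD17B2 by qRT-PCR in livers of these boars and of further boars, and reports a similar pattern there. Those measurements were not used here.

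In hepatocyte markers low 1 and low 2 had sums of 120954 and 171608 CPM, within 86180 to 255452 CPM over the livers. They had the highest sums of the 10 livers in 3 other marker lists: 611 and 630.4 CPM of leukocyte and macrophage markers, 27.5 and 29.8 CPM of germ cell markers, and 13.7 and 23.9 CPM of Leydig cell markers. In the lists for blood, bile duct cells, Sertoli cells and endothelium they were not the highest pair. Each of the 3 sums was mainly 1 gene in the low livers. For Leydig cells this was HSD3B1, itself a hydroxysteroid dehydrogenase. It had a mean of 9.32 CPM against 0.977 CPM for INSL3, 0.152 CPM for CYP17A1 and 0.0448 CPM for LHCGR. For germ cells it was SYCP3, at 16.3 CPM against 0.699 CPM for TNP1, the next. For leukocytes and macrophages it was CD14, at 432 CPM against 52.6 CPM for PTPRC, the next. The part of these markers in the HSD17B2 values was not tested. Of 4169 transcripts with a gene symbol searched, those most like HSD17B2 over the livers were GGACT, an enzyme of gamma-glutamylamine breakdown (r = 0.952), F5, coagulation factor V (r = 0.941), and FADS2, a fatty acid desaturase (r = 0.915). FADS2 was at 14.6 and 9.42 CPM in low 1 and low 2 and at 0.29 to 2.71 CPM in the other livers, and F5 was at 343 and 392 CPM against 125 to 243 CPM. Low 1 and low 2 were thus the highest livers in both, and these correlations are given as a description over 10 livers.

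In testis HSD17B2 was at 0.0973, 0.214, 0.0883, 0.164 and 0.190 CPM in the low and at 0.213, 0.303, 0.862, 0.238 and 0.384 CPM in the high samples. In 4 of the 5 high samples the value lay above all low samples, and the ranges overlapped through high 1, while 37 counts in all stand behind them. The log2 fold change was 1.32 (SE 0.53, adjusted p = 0.464; exact permutation p = 0.0159), and 0.90 without high 3. The difference of the androstenone effect between testis and liver was 4.33 (SE 1.31) with an unadjusted p of 0.00299 and an adjusted p of 0.986, so that it was not called, and no transcript of 19065 was. Unadjusted p-values under 0.05 for this difference were found for 1 of 9 members, HSD17B2, which the study lists for liver, and for 4.67% of all transcripts. DESeq2 called 1 transcript, which was not a member.

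AKR1C1 (NM_001044618.1) was the other liver member with an unadjusted p under 0.05. The low livers averaged 30.5 ± 8.50 CPM (SD, n = 5) and the high livers 17.3 ± 6.08 CPM (SD, n = 5). In the values given above, 4 of 5 low livers lay above all 5 high livers, and low 3, at 17.3 CPM, lay among them. The log2 fold change was -0.74 (SE 0.29, adjusted p = 0.9999), and the exact two-sided permutation test gave p = 0.0238. With single samples left out it stayed between -0.93 and -0.63.

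The remaining members tested in liver had unadjusted p-values of 0.230 to 0.900 in edgeR over all transcripts. HSD17B4 had a log2 fold change of -0.04 (SE 0.28) and HSD11B1 one of -0.27 (SE 0.35). AKR1CL1 had -0.54 (SE 0.43) and AKR1C1 (NM_001044569.1) had 0.52 (SE 0.42), which was 0.06 without high 2, the liver at 956 CPM. All had an adjusted p of 0.9999.

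In testis HSD17B4 averaged 132 ± 37.3 CPM (SD, n = 5) in the low and 204 ± 70.8 CPM (SD, n = 5) in the high group. High 2 and high 3 held the highest values, 305 and 249 CPM, and low 3, at 198 CPM, lay above the remaining high samples. The corresponding log2 fold change was 0.60 (SE 0.23, adjusted p = 0.446), and the exact permutation test gave p = 0.0794.

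SRD5A1 averaged 14.6 ± 5.10 CPM (SD, n = 5) and 22.0 ± 7.30 CPM (SD, n = 5). The groups overlapped, since low 5 stood at 22.2 CPM and 3 of the high testes stood lower. This gave a log2 fold change of 0.57 (SE 0.26, adjusted p = 0.509; exact permutation p = 0.0952). HSD11B1 averaged 13.2 ± 2.93 CPM (SD, n = 5) and 9.71 ± 2.21 CPM (SD, n = 5), with a log2 fold change of -0.47 (SE 0.21, adjusted p = 0.492; exact permutation p = 0.0714).

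Some of these testis levels were highest in the samples with the highest summed Leydig cell markers. Of 7 fixed markers 4 were found (CYP17A1, HSD3B1, INSL3 and LHCGR), none at 0, and their sum ranged from 694 to 3324 CPM in the low and from 823 to 3406 CPM in the high testes. The sum was mainly INSL3, with a mean of 1579 CPM over the testes. CYP17A1 averaged 290 CPM, LHCGR 7.52 CPM and HSD3B1 3.15 CPM. High 2, low 5 and high 3 had the 3 highest sums, 3406, 3324 and 2672 CPM. These 3 testes were also the 3 highest in AKR1CL1, at 514, 422 and 386 CPM, and in SRD5A1, at 31.6, 22.2 and 27.3 CPM. HSD17B4 was high in high 2 and high 3 but not in low 5. The part of Leydig cell content in the group differences was not tested, and in bulk tissue fewer cells of a type and less RNA per cell cannot be told apart.

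**Figure D5:**
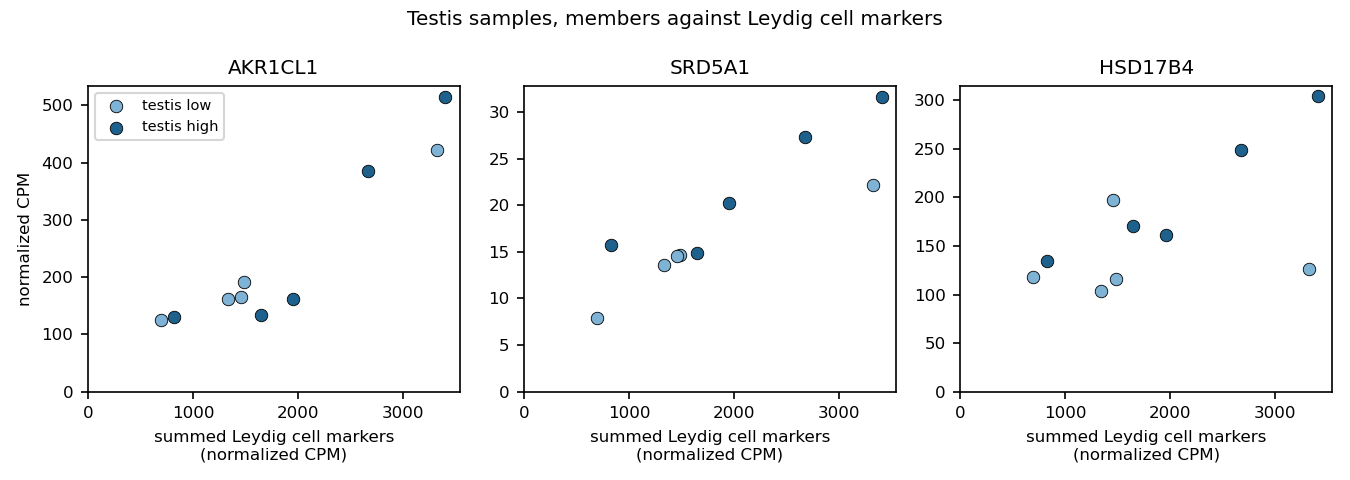
Normalized CPM of AKR1CL1, SRD5A1 and HSD17B4 (vertical axes) against the summed normalized CPM of 4 Leydig cell markers (horizontal axes) in the 10 testis samples, 1 point per sample, coloured by androstenone group. The 3 testes with the highest marker sums (2672 to 3406 CPM) are the 3 highest in AKR1CL1 and SRD5A1.

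The other members had unadjusted p-values of 0.0696 to 0.730 in edgeR in testis. HSD11B2 had a log2 fold change of -0.86 (SE 0.44, adjusted p = 0.557), which was -0.32 without low 5, the testis at 9.17 CPM. AKR1CL1 had 0.29 (SE 0.40) and SRD5A2 had 0.15 (SE 0.42). AKR1C1 (NM_001044618.1) had 0.89 (SE 1.00) on 18 counts. AKR1C1 (NM_001044569.1), with its split of 1 low and 2 high testes, had 1.05 (SE 1.65, exact permutation p = 0.937), and it was 6.75 without low 3 and -0.11 without high 5, so that single samples decide it. Summing the 3 member identifiers of the AKR1C group (both AKR1C1 identifiers and AKR1CL1), which leaves out LOC733635 and the identifiers without a symbol, gave 0.40 (SE 0.35) in testis, 0.13 (SE 0.38) in liver and -1.19 (SE 0.29, adjusted p = 5.63e-04) between the tissues.

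Hemoglobin transcripts had lower values in the high testes without passing the threshold. The 10 hemoglobin identifiers summed to 118 to 1058 CPM in the low and 51.7 to 163 CPM in the high testes, with overlapping ranges. All 10 had an unadjusted p under 0.05 (background 9.49%) and none was called. The 10 identifiers stand for only 4 gene symbols, and most of them are HBA2 with nearly the same values. They are not separate results, and the sum counts HBA2 more than once. Summed leukocyte and macrophage markers were at 6.42 to 11.1 CPM in the low and at 4.76 to 5.57 CPM in the high testes. The part of either in the values of the members was not tested.

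Further enzymes of the same families were found on both sides of the tissue comparison, in which 75.7% of all transcripts were called, 43.5% higher in testis and 32.2% higher in liver. Of 15 other hydroxysteroid dehydrogenases listed, 8 were found by symbol as 9 identifiers, with 3 called higher in testis and 5 higher in liver. HSD3B7, which acts in bile acid synthesis, had a log2 fold change of -5.63, the mitochondrial HSD17B10 had -3.95 and -3.83 in 2 identifiers, HSD17B7, an enzyme of cholesterol synthesis, had -2.98, and HSD11B1L had 2.51. Of 25 further reductases and dehydrogenases 8 were found, with 1 called higher in testis and 3 higher in liver. AKR1B1, the aldose reductase, had 5.34, and DHRS9, CBR4 and RDH11, short-chain dehydrogenases, had -3.31, -2.36 and -1.92. The mean of DHRS9 was below the floor in testis, at 0.0911 CPM, and only just above it in liver, at 0.909 CPM. Among the receptors listed, ESR1, the estrogen receptor, had 3.42 and NR3C1, the glucocorticoid receptor, had -1.69.

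None of these genes was called between androstenone groups. The lowest unadjusted edgeR p-values in testis were 0.00324 for RDH11, with a log2 fold change of 0.90, 0.00569 for HSD17B7, with 1.06, and 0.00658 for HSD11B1L, with -0.68. In liver the lowest was 0.00803 for HSD3B1, with -1.68. HSD3B1, which turns pregnenolone into progesterone, is one of the Leydig cell markers listed above but was not higher in testis, at 3.15 ± 1.67 CPM against 6.02 ± 6.67 CPM in liver (SD, n = 10).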

How the data were processed

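RNA-seq counts of 10 testis and 10 liver samples were analysed, 5 of low and 5 of high androstenone each, grouped by their titles. The authors deposited whole-number read counts per reference transcript, not normalized, in 1 file per sample. Libraries were made with a SMART cDNA kit and run on 1 lane each of an Illumina sequencer. Per the labels and the study's methods, reads were called with CASAVA 1.7 and mapped with BWA to RefSeq mRNA and UniGene transcripts of Sscrofa 9.2, and SAMtools is named in the submitters' processing notes. The rule for counting reads that fit several transcripts is not given in the sources used here.

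Each file held 21785 lines for 21755 identifiers. 10 identifiers were listed 4 times and used once. Symbols came from the RefSeq gene table of Sscrofa11.1 for 6663 identifiers, with HSD17B2 and the hemoglobins by the identifiers the study gives. Transcripts with at least 10 summed counts were fitted with edgeR 4.0.16 in R 4.3.3 (TMM, quasi-likelihood test), within each tissue, or over 20 samples for the tissue comparison and the difference of effects. The SE is the log2 fold change divided by the root of the F value. Exact permutation tests used log2(CPM + 0.5), scipy 1.17.1. Printed CPM are normalized over 20 samples. All members were named whatever their values, and at most 4 genes of each further list and comparison, by fold if called or otherwise by p. Markers and transcripts alike in pattern were named beside them. Alternatives were RLE and total-count scaling, other filters, DESeq2 1.42.0, a replicate block, summed identifiers, 1 fit of all samples and samples left out in turn. The model was tested on simulated counts.

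The members and lists were chosen with earlier results of these data known. Per the study, testis and liver came from 10 boars; the labels do not tie the samples of one boar together. AKR1C4 was not analysed here, 1 gene of the further lists is not reported here, and the authors' own comparisons were not used.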

Additional observations from a re-analysis of the deposited data

Results flagged for a closer look

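Among 29 groups of 5 samples with at least 1 library over 3 counts, 6 had a sample set apart by Dixon's test on CPM (critical value 0.71), each time the highest. The chance rate of about 1 in 20 holds for normal values, which CPM need not be, so no excess can be read from this number. The samples were AKR1C1 (NM_001044569.1) in testis low 3, at 128 CPM, and in liver high 2, at 956 CPM. HSD17B4 was set apart in testis low 3, at 198 CPM, and AKR1CL1 in testis low 5, at 422 CPM. HSD17B2 was set apart in testis high 3, at 0.862 CPM, which is 9 counts, and SRD5A2 in testis low 2, at 2.24 CPM. In the high testes AKR1C1 (NM_001044569.1) was not set apart, since 2 of 5 samples shared the high level.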

How the results depend on the processing

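Of the member values, those between tissues kept their direction under all alternatives run, and all but 1 kept their side of the threshold. The exception was AKR1CL1, at 1.24 and called with total counts only. That scaling changed the transcripts called higher in testis and in liver from 8293 and 6143 to 11348 and 3577. DESeq2 called 120 transcripts in testis, 7 in liver and 1 for the difference of effects, where edgeR called 0. The cause was not tested. Single samples left out gave 0 to 2 transcripts in testis (2 without low 5), 0 to 0 in liver and for the difference, 14270 to 14434 between tissues, and 8 to 8 members between tissues.

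Direction turned only for values not called, with a sample left out. In testis the ranges were -0.11 to 6.75 for AKR1C1 (NM_001044569.1), -0.080 to 0.72 for AKR1CL1 and -0.032 to 0.61 for SRD5A2. In liver HSD17B4 ranged from -0.16 to 0.076. For the difference of effects HSD11B1 ranged from -0.29 to 0.17 and AKR1C1 (NM_001044569.1) from -0.53 to 6.32.

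Replicate numbers were not taken as pairs, since the labels do not tie them to a boar. Each set held a same-numbered pair with a negative correlation. Such a pair cannot decide whether a number marks the same boar in both tissues. Low and high samples come from different boars, so those sets do not bear on it. The mean correlation of same-numbered samples, against that of other numbers, was 0.0747 against -0.0212 between low and high testes, 0.0294 against -0.00665 between livers, and 0.0835 against -0.0215 and 0.205 against -0.0548 between tissues in the low and high group. By this measure 0 to 2 of 5 samples correlated best with their own number. With the replicate block, 0 transcripts were called in testis, 0 in liver, 0 for the difference and 14201 between tissues. In that block HSD17B2 in liver was at -1.76 and AKR1C1 (NM_001044569.1) at 4.30 in testis and -7.80 between tissues. Members near the floor, such as HSD17B2 in testis and SRD5A2, are limited by depth.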
